A study of Mus musculus with 12 samples.

Results

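The 9 genes described here encode the enzymes and the transporter at which liver cells set the direction of flow between glucose and pyruvate: Pcx, Pck1, Fbp1, Slc37a4 and G6pc1 for glucose production, Pfkl and Pklr for glycolysis, and Pfkfb1 and Pfkfb3 for the signal between them. They were chosen by name, for their place in the pathway, among the 55836 gene symbols listed for mouse liver RNA. Expected reads were summed over the transcripts of each gene, and all 9 of the 9 genes passed the filter on low counts, among 13620 genes tested.

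The study compared 3 groups of 4 liver libraries from AhR-floxed mice, in which the gene of the aryl hydrocarbon receptor carries loxP sites; the labels name no Cre. All groups began at 8 weeks of age and were fed for 20 weeks. The MD+CA group received a diet that induces metabolic dysfunction-associated steatohepatitis (MD), in which fat gave 40 kcal%, fructose gave 20 kcal% and cholesterol made up 2%, and cinnabarinic acid (CA) at 12 mg/kg in 0.2% DMSO, injected intraperitoneally 3 times a week. CA is a tryptophan metabolite of the kynurenine pathway that binds the aryl hydrocarbon receptor. The MD group received the same diet and the DMSO vehicle by the same route and schedule. Fat gave 10 kcal% in the control diet of the CD group, and the labels do not say whether it was injected. The labels do not state that the 4 libraries of a group came from separate mice, so p-values measure only the spread between libraries. The labels also give no time of day of collection.

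Gluconeogenesis makes glucose from lactate, alanine and glycerol and is carried out by hepatocytes in fasting. It runs along the reversible steps of glycolysis and bypasses the irreversible ones with its own enzymes: pyruvate carboxylase (Pcx) and phosphoenolpyruvate carboxykinase (Pck1) oppose pyruvate kinase (Pklr), fructose-1,6-bisphosphatase (Fbp1) opposes phosphofructokinase (Pfkl), and glucose-6-phosphatase (G6pc1) with the glucose-6-phosphate transporter of the endoplasmic reticulum (Slc37a4) opposes the phosphorylation of glucose. Glucagon and cAMP are known to induce transcription of Pck1 and G6pc1 in liver, insulin to repress it, and dietary carbohydrate to induce Pklr.

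The libraries held between 9089586 and 14492587 reads. They were labelled male, but every one of the 12 held reads of Xist, the RNA that silences an X chromosome in females (5122 to 12865 reads), and 4 Y-linked genes (Ddx3y, Kdm5d, Uty and Eif2s3y) had 0 reads in each. The label of sex thus went against the reads in all 3 groups alike. The 6 hepatocyte markers were abundant and none of them passed the edgeR test in any comparison, adjusted or at an unadjusted p of 0.05; their summed level was 48832 to 67619 CPM in MD+CA, 38048 to 66356 CPM in MD and 55290 to 72479 CPM in CD. The 6 Kupffer cell markers summed to between 312.5 and 676 CPM in MD+CA, 147 and 253 CPM in MD, and 191 and 247 CPM in CD. By the test 4 of the 6 were higher in MD+CA than in MD, beside 1.09% of all genes. Of these 4 calls, 3 (Cd5l, Marco and C1qa) were recomputed under other settings, and the other was not. All 3 were lost without the 3 libraries with the shortest fragments (MD replicates 1 and 2 and MD+CA replicate 1). The edgeR adjusted p of Cd5l, Marco and C1qa was then 0.0942, 0.187 and 0.165. Here and below, this omission leaves fewer libraries in both groups, which by itself lowers the power of the test. MD replicates 1 and 2 also had the largest mitochondrial shares (10.7 and 17.5%). The part of fragment length in the lost calls was not tested. Leaving out 1 library, the call of Marco was also lost without MD replicate 1, 2 or 4, and that of C1qa without MD+CA replicate 2 or 3 or MD replicate 1. The call of C1qa was lost as well when only the compared groups were fitted and with fragment length as a covariate. None of 5 markers of pancreas and adipose tissue passed the filter on low counts; Prss1 had 0 reads in every library, Cpa1 at most 1, Cela2a at most 6, Plin1 at most 62 and Adipoq at most 82. Reads from mitochondrial genes made up 4.97 to 7.94% of the MD+CA libraries, 6.16 to 17.5% of the MD libraries and 5.72 to 6.63% of the CD libraries. In whole liver RNA, fewer cells of a type and less RNA per cell cannot be told apart.

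On the TPM scale, which corrects for transcript length and depth, the genes differed in level far more than the groups did. Pck1 had the highest median over the 12 libraries, 845 TPM (range 401 to 1505 TPM), followed by Fbp1 at 363 TPM (101.2 to 418 TPM) and G6pc1 at 180 TPM (66.0 to 491 TPM). Pklr, at 69.3 TPM, Slc37a4, at 68.2 TPM, and Pcx, at 36.4 TPM, came next. One transcript carried most of the TPM of Fbp1, Pfkl, Pck1 and Pcx in each group, from a mean of 98.8% or more for Fbp1-201 to a mean of 79.7% or more for Pcx-204, and G6pc1 had a single listed transcript. From Pck1 down to Pcx the ranges of neighbouring genes overlapped. Pfkfb1 was lower, at 16.2 TPM (8.83 to 25.0 TPM), and its range overlapped neither that of Pcx (28.3 to 53.8 TPM) nor that of Pfkl (2.69 to 8.04 TPM, median 6.62 TPM). Pfkfb3 had the lowest median, 2.08 TPM, and between 29 and 206 reads, against 10036 to 59530 reads for Pck1.

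**Figure D1:**
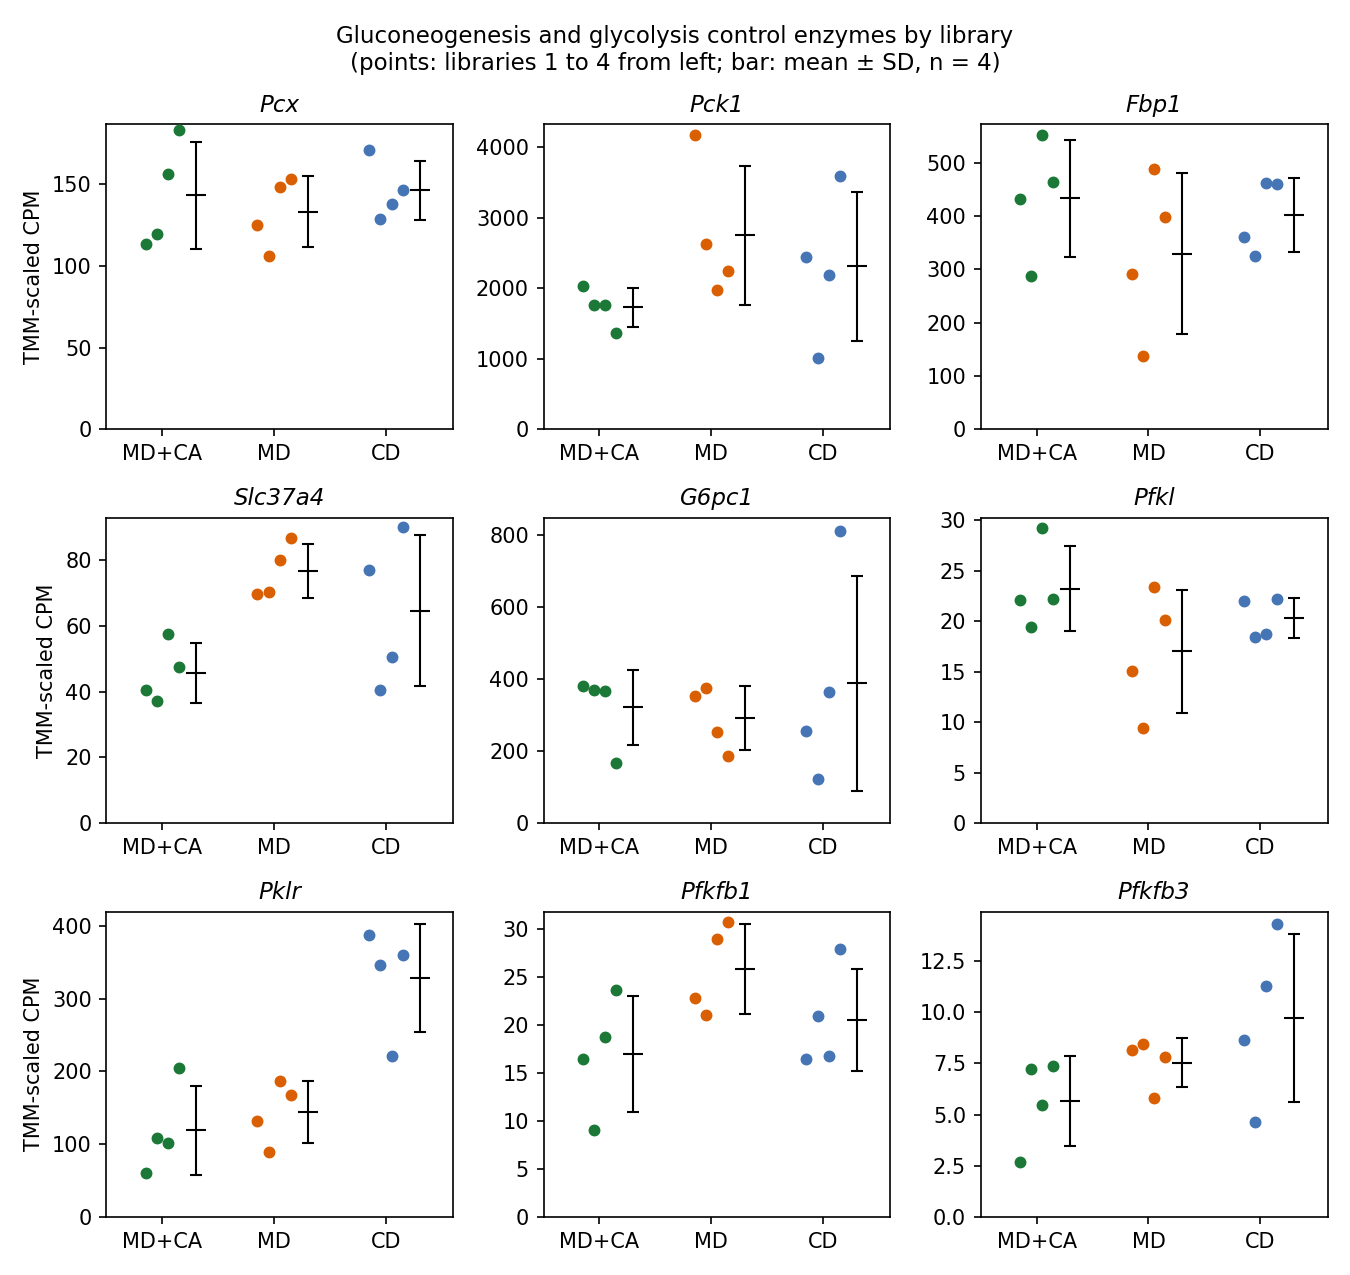
Read counts scaled to library size (TMM-scaled CPM) of the 9 genes in the MD+CA, MD and CD libraries, with 1 point for each library and the mean ± SD of 4 libraries beside them; each panel has its own vertical axis from 0. The 4 CD libraries of Pklr, at 221 to 388 CPM, lie above all MD+CA and MD libraries, and the MD+CA and MD libraries of Slc37a4 do not overlap.

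The first comparison, MD with CD, addresses the steatohepatitis diet given with vehicle injections. The second, MD+CA with MD, addresses the compound on that diet, and the third, MD+CA with CD, addresses all of these at once. Since the labels do not say whether CD was injected, diet and vehicle injections cannot be told apart in comparisons with CD. The first and the third share the CD libraries, and the first and the second share the MD libraries. None of the 9 genes passed an adjusted p of 0.05 in any comparison with edgeR's quasi-likelihood test. Over all genes, 12 of 13620 (0.0881%; 0.0441% higher and 0.0441% lower) passed for MD against CD. For MD+CA against MD 378 genes passed (2.78%; 1.09% higher and 1.68% lower), and for MD+CA against CD 72 genes (0.529%; 0.22% higher and 0.308% lower). DESeq2 called 1 of the 9 genes in each comparison, Pklr in both comparisons with CD and Slc37a4 in MD+CA against MD. limma voom called Pklr in both comparisons with CD and none of the 9 in MD+CA against MD. Over all genes DESeq2 called 632 of 13620 for MD against CD and 1216 for MD+CA against MD. The edgeR shares therefore do not apply to the calls of these 2 tools. At an unadjusted p of 0.05 the edgeR fit passed 1 of the 9 for MD against CD (Pklr), beside 20% of all genes; 2 for MD+CA against MD (Slc37a4 and Pfkfb1), beside 23.2%; and 2 for MD+CA against CD (Pklr and Pfkfb3), beside 10.5%. The median log2 fold change of the 9 genes was -0.25, -0.28 and -0.28 in the 3 comparisons, and that of all genes tested was 0.04, -0.0033 and 0.02. Libraries of the compared groups did not overlap for 1 of the 9 genes in each comparison. Over all genes that share was 13.1% for MD against CD, 10.2% for MD+CA against MD and 6.42% for MD+CA against CD.

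**Figure D2:**
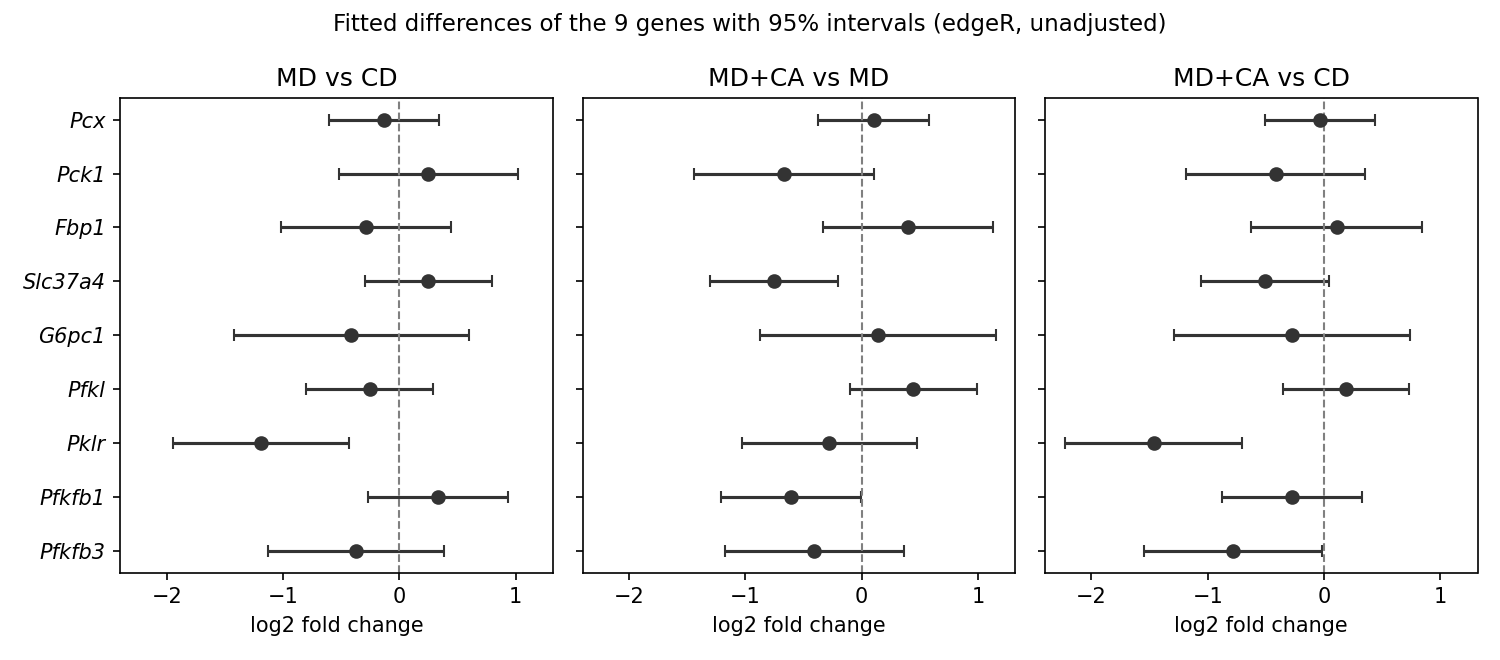
Fitted log2 fold changes of the 9 genes in the 3 comparisons, with bars for unadjusted 95% intervals and a dashed line at 0. The interval of Pklr lies below 0 in both comparisons with CD, at -1.19 for MD and -1.47 for MD+CA, and no point passed the adjusted threshold.

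Pklr, which encodes the pyruvate kinase of liver and red cells that turns phosphoenolpyruvate into pyruvate, stood furthest from its CD level among the 9 genes. Its promoter is printed because the gene is the textbook target of carbohydrate-responsive transcription in liver. The window runs from 250 bases before to 50 bases after the start site of its downstream promoter in RefSeq, at chr3:89136373-89136672 of build GRCm38.p6, plus strand. Capitals mark a match to the carbohydrate response element, a pair of E-box-like sequences held apart by a short spacer, whose first base lies 170 bases upstream of the start site.
Pklr: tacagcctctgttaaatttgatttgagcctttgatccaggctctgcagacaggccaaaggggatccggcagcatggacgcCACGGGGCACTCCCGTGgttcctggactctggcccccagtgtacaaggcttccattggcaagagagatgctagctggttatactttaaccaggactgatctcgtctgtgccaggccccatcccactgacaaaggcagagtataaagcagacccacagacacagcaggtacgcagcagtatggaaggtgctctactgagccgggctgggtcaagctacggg
This pattern was added to the search after the Pklr window had been seen, and 0.119% of 32851 RefSeq promoter windows (39 windows) held a match on either strand. The window also held a TATA box (TATAAA) 31 bases upstream, which 13.6% of all windows hold.

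Pklr measured 60.7, 109, 101.02 and 205 CPM in the 4 MD+CA libraries. It measured 132, 89.9, 187 and 168 CPM in the 4 MD libraries, and 388, 346, 221 and 360 CPM in the 4 CD libraries. The lowest CD library was above the highest library of either diet group, whereas the 4 MD libraries lay within the range of MD+CA. On the TPM scale the separation from MD+CA did not hold: MD+CA replicate 4 had 93.7 TPM, against 83.7 TPM in CD replicate 3, the lowest CD library. All 4 MD libraries, at 33.8 to 74.9 TPM, stayed below it. MD over CD gave a log2 fold change of -1.19 (SE 0.34, 95% interval -1.95 to -0.43), an average 2.28 times lower in MD, with an adjusted p of 0.117 by edgeR, 0.0163 by DESeq2 and 0.0484 by limma voom. For MD+CA over CD it was -1.47 (SE 0.34, 95% interval -2.23 to -0.70), 2.76 times lower in MD+CA, with an adjusted p of 0.0639 by edgeR, 0.00139 by DESeq2 and 0.0175 by limma voom. Without MD+CA replicate 4, its highest diet library, that value was -1.87 and passed edgeR's threshold (adjusted p = 0.014). Without the 3 libraries with the shortest fragments (MD replicates 1 and 2 and MD+CA replicate 1) the values were -0.89 for MD over CD and -1.25 for MD+CA over CD, with edgeR adjusted p of 0.454 and 0.085. The difference of MD+CA from MD was -0.28 (SE 0.33, 95% interval -1.03 to 0.47; edgeR adjusted p = 0.643). That interval holds 0.

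The reads of Pklr were split by the submitters' quantification over 5 transcripts, chiefly Pklr-202 and Pklr-201. In the GENCODE annotation of build GRCm38, Pklr-202 starts inside the printed window and Pklr-201 at the start site of an upstream promoter; in rodents the upstream promoter is known for the red cell form and the downstream one for the liver form. Pklr-202 had 18.7, 43.7, 24.0 and 69.6 TPM in MD+CA, 43.9, 31.7, 72.2 and 61.1 TPM in MD, and 145, 112, 82.8 and 149 TPM in CD. Every CD library was thus above every library of both diet groups for this transcript. Pklr-201 had 8.05, 2.06, 10.3 and 18.8 TPM in MD+CA, 0.457, 0, 0 and 0.752 TPM in MD, and 35.6, 22.7, 0 and 0 TPM in CD. Its level in each MD+CA library was above that in every MD library, and within CD it ranged from 0 to 35.6 TPM. The 3 red cell markers (Hbb-bs, Hba-a1 and Alas2) summed to 37.6 to 143 CPM in MD+CA, 73.4 to 167 CPM in MD and 31.0 to 139 CPM in CD. Their part in the Pklr-201 values was not tested.

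**Figure D3:**
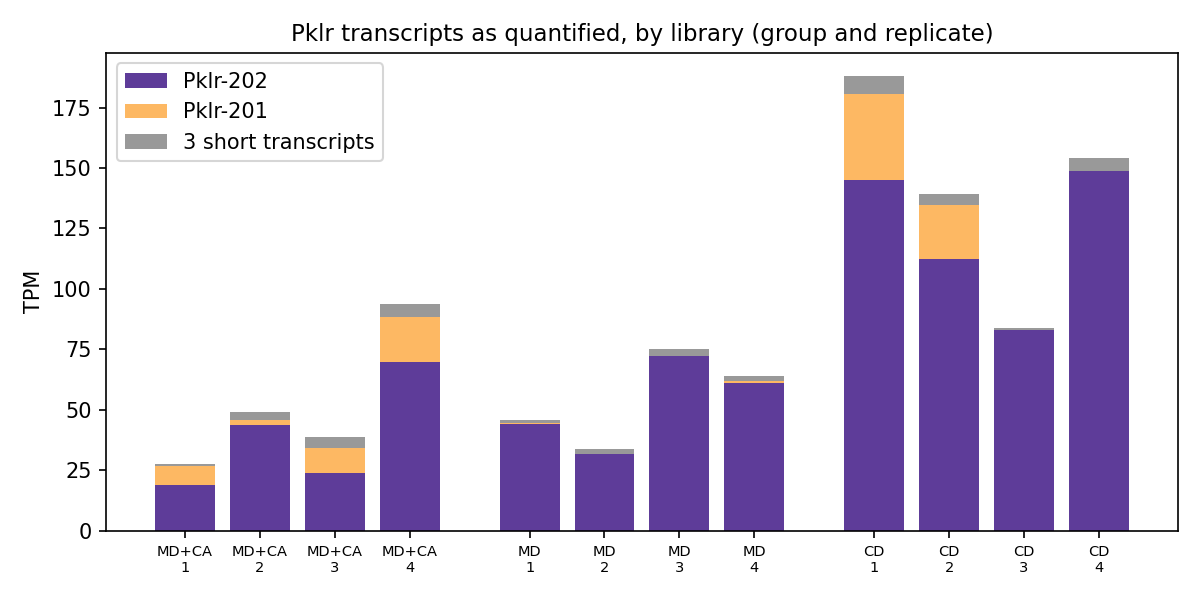
Stacked bars of the TPM of the Pklr transcripts in each of the 12 libraries, from MD+CA through MD to CD, with Pklr-202 at the bottom, Pklr-201 above it and 3 short transcripts on top. Pklr-202 fills most of every bar, and reaches 82.8 to 149 TPM in CD libraries.

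Pfkl, the liver subunit of phosphofructokinase, which commits fructose 6-phosphate to glycolysis, ranged from 19.4 to 29.2 CPM in MD+CA, from 9.46 to 23.4 CPM in MD and from 18.4 to 22.2 CPM in CD. All 3 ranges overlapped, and the lowest value belonged to MD replicate 2, the library with 17.5% mitochondrial reads. In log2 terms the difference was -0.25 (SE 0.24) for MD over CD, 0.44 (SE 0.24) for MD+CA over MD and 0.19 (SE 0.24) for MD+CA over CD, with edgeR adjusted p of 0.57, 0.281 and 0.894.

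Among the gluconeogenic genes, Pck1 makes phosphoenolpyruvate from oxaloacetate, and its transcription is a textbook target of glucagon and cAMP. Its RefSeq promoter window, chr2:173152823-173153122 of build GRCm38.p6 on the plus strand, is printed for the core of the cAMP response element (ACGTCA, in capitals), whose first base lies 91 bases upstream of the start site.
Pck1: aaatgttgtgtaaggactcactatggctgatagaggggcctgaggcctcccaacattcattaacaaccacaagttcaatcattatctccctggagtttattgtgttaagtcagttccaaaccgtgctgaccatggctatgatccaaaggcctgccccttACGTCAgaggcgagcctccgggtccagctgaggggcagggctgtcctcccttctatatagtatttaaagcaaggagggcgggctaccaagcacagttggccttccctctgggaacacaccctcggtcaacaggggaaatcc
The core ACGTCA was present on either strand in 7.51% of all promoter windows. On the minus strand it was also present in windows of Slc37a4 and Pfkfb3. The Pck1 window further held GTTAAT, a core of the HNF1 motif, on the minus strand 192 bases upstream.

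Pck1 measured 2039, 1764, 1759 and 1367.5 CPM in MD+CA. It measured 4171, 2623.5, 1969 and 2241.5 CPM in MD, and 2448, 1016, 2192 and 3590.5 CPM in CD. MD+CA replicate 1 was above MD replicate 3, so MD+CA and MD overlapped by 1 library each, and the CD libraries spanned most of the range. MD+CA over MD gave a log2 fold change of -0.67 (SE 0.34, 95% interval -1.44 to 0.11; edgeR adjusted p = 0.254). MD over CD gave 0.25 (SE 0.34, adjusted p = 0.704) and MD+CA over CD -0.42 (SE 0.34, adjusted p = 0.798), by the same test. The sign of MD over CD turned without MD replicate 1 (-0.0227).

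G6pc1 encodes the catalytic subunit that releases free glucose from glucose 6-phosphate. Its RefSeq window, chr11:101367466-101367765 of build GRCm38.p6 on the plus strand, is printed because its insulin response sequence is a textbook site of hormonal control. Capitals mark the HNF1 core GTTAAT, 221 bases upstream, and TGTTTTG, the insulin response sequence core (CAAAACA) read on the other strand, 174 bases upstream.
G6pc1: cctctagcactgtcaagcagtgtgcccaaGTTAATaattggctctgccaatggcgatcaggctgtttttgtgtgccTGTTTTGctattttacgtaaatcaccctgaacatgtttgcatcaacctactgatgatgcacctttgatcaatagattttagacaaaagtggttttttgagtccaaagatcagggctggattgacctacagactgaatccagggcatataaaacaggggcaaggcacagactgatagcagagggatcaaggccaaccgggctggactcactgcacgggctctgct
GTTAAT occurred in 7.1% and CAAAACA in 6.28% of all windows, on either strand. The window also held a D-box (TTANGTAA, a motif of clock output factors) 162 bases upstream, as did 2.32% of windows, and TATAAA 29 bases upstream. A FOXO core was searched only in the spelling GTAAACA, found in 3.65% of windows. That spelling was in none of the 17 windows of the 9 genes, which does not show that they lack FOXO sites. Whether FOXO factors bind other sequences there, the insulin response sequence core among them, was not tested. The cAMP response element was likewise searched only by its core ACGTCA, so other forms of it would be missed.

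G6pc1 measured 382, 371, 368 and 166 CPM in MD+CA. It measured 353, 375, 253 and 187 CPM in MD, and 257, 122, 364 and 812 CPM in CD. The CD libraries included both the lowest and the highest of all 12, and the other groups lay within their range. The log2 fold change was -0.41 (SE 0.45) for MD over CD, 0.14 (SE 0.45) for MD+CA over MD and -0.27 (SE 0.45) for MD+CA over CD, with edgeR adjusted p of 0.625, 0.878 and 0.929. Without CD replicate 4 both differences from CD turned positive, at 0.24 for MD and 0.38 for MD+CA. The 95% interval for MD over CD, -1.43 to 0.60, was the widest of the 9 genes in that comparison.

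Slc37a4, which carries glucose 6-phosphate to the enzyme encoded by G6pc1, measured 40.4, 37.1, 57.6 and 47.5 CPM in MD+CA. It measured 69.8, 70.4, 80.2 and 86.9 CPM in MD, and 77.0, 40.6, 50.6 and 90.2 CPM in CD. Every MD+CA library was below every MD library, and the CD libraries reached into both. The log2 fold change of MD+CA over MD was -0.75 (SE 0.24, 95% interval -1.30 to -0.20), with an adjusted p of 0.0933 by edgeR, 0.0426 by DESeq2 and 0.0814 by limma voom. MD over CD gave 0.25 (SE 0.24, edgeR adjusted p = 0.58) and MD+CA over CD -0.50 (SE 0.24, edgeR adjusted p = 0.499). The difference in MD+CA was present in the main coding transcript, Slc37a4-201, which had 16.3, 14.8, 23.3 and 25.8 TPM in MD+CA and 29.5, 31.0, 39.9 and 38.4 TPM in MD. A short retained-intron transcript, Slc37a4-204 of 595 bases, held a mean of 58.5% of the gene's TPM in MD+CA, 57.0% in MD and 53.6% in CD. By reads it held 24.1%, 21.7% and 20.6% in those groups, so the TPM of the gene exceeds what its coding transcripts give.

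Fbp1, which removes a phosphate from fructose 1,6-bisphosphate, ranged from 288 to 551 CPM in MD+CA, from 137 to 488 CPM in MD and from 326 to 462 CPM in CD. The lowest value was again that of MD replicate 2. In log2 terms the difference was -0.29 (SE 0.32) for MD over CD, 0.40 (SE 0.32) for MD+CA over MD and 0.11 (SE 0.32) for MD+CA over CD, with edgeR adjusted p of 0.637, 0.48 and 0.972. Pcx, the mitochondrial enzyme that makes oxaloacetate from pyruvate, ranged from 114 to 183 CPM in MD+CA, from 106.04 to 153 CPM in MD and from 129 to 171 CPM in CD. Its log2 fold changes were -0.13, 0.10 and -0.03 (SE 0.21 each), and the 95% intervals reached from -0.61 to 0.34, from -0.37 to 0.58 and from -0.50 to 0.44 (edgeR adjusted p of 0.746, 0.801 and 0.991).

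Pfkfb1 and Pfkfb3 encode bifunctional enzymes that make and break down fructose 2,6-bisphosphate, the signal molecule that activates phosphofructokinase and inhibits fructose-1,6-bisphosphatase. Pfkfb1 is the liver form, whose balance of activities is set by cAMP-dependent phosphorylation, and Pfkfb3 is a widely expressed form that mainly makes the signal. Pfkfb1 measured 16.5, 9.08, 18.7 and 23.7 CPM in MD+CA, 22.8, 21.1, 28.9 and 30.7 CPM in MD, and 16.5, 21.0, 16.7 and 27.95 CPM in CD. MD+CA replicate 4 was the sole MD+CA library within the MD range. The log2 fold change of MD+CA over MD was -0.61 (SE 0.27, edgeR adjusted p = 0.187, unadjusted p = 0.0377), against 0.33 (SE 0.27, edgeR adjusted p = 0.492) for MD over CD and -0.28 (SE 0.27, edgeR adjusted p = 0.842) for MD+CA over CD. Its reads were split mainly over Pfkfb1-201 and Pfkfb1-202, which start at different promoters, but the split was unstable: Pfkfb1-201 held 39.5 ± 27.0% of the gene's TPM in MD+CA, 52.8 ± 29.6% in MD and 16.5 ± 19.4% in CD (SD, n = 4 each).

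Pfkfb3 measured 2.67, 7.20, 5.44 and 7.35 CPM in MD+CA, 8.13, 8.45, 5.78 and 7.80 CPM in MD, and 8.65, 4.66, 11.3 and 14.3 CPM in CD. The lowest library belonged to MD+CA and the highest to CD, and the ranges of all 3 groups overlapped. The log2 fold change was -0.78 (SE 0.34, 95% interval -1.55 to -0.01) for MD+CA over CD, with an unadjusted p of 0.0359 and an adjusted p of 0.41 by edgeR. It was -0.41 (SE 0.34, adjusted p = 0.491) for MD+CA over MD and -0.37 (SE 0.33, adjusted p = 0.544) for MD over CD by the same test.

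Ratios of opposing genes within a library are on the TPM scale and carry no test. Pck1 over Pklr, the pair around phosphoenolpyruvate, ran from 6.35 to 31.8 in MD+CA (median 15.8), from 10.5 to 31.5 in MD (median 20.0) and from 2.88 to 10.4 in CD (median 7.85). Every MD library thus lay above every CD library, while MD+CA overlapped both. Fbp1 over Pfkl, the pair around fructose 1,6-bisphosphate, overlapped between all 3 groups. Its mean was 48.5 ± 4.97 in MD+CA, 50.1 ± 8.64 in MD and 55.3 ± 10.0 in CD (SD, n = 4 each). Within CD it ran from 45.7 to 68.2.

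Fbp1 and Pfkl also rose and fell together over the 12 libraries. Of 54 relations computed on log2 CPM, 36 between members and 18 with the mitochondrial share or the fragment length of a library, only this pair passed among members (Pearson r = 0.93, permutation p = 0.00014, adjusted p = 0.00756; Spearman rho = 0.853, permutation p = 0.00088, adjusted p = 0.0475). Without the 2 libraries farthest from the median of Fbp1 it was 0.832, and with group means removed it was 0.927. MD replicate 2 was the lowest library for both genes. Pfkl also ran against the mitochondrial share (r = -0.896, permutation p = 0.00147, adjusted p = 0.0397; Spearman rho = -0.497, permutation p = 0.104), but without the 2 libraries farthest from the median share r was -0.342, so that relation rests on those libraries. Fbp1 likewise had r = -0.864 with that share (permutation p = 0.00511, adjusted p = 0.092; Spearman rho = -0.601, permutation p = 0.0427, adjusted p = 0.288), and r was -0.253 without the same 2 libraries. The part of the mitochondrial share in the relation of Fbp1 and Pfkl was not tested.

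Pck1 and G6pc1, the classical pair of fasting genes, had r = 0.715 (permutation p = 0.01, adjusted p = 0.108) and Spearman rho = 0.462 (permutation p = 0.133, adjusted p = 0.45). Without the 2 libraries farthest from the median of Pck1 r was 0.676, and with group means removed it was 0.856. The relation did not pass the correction for 54 relations. Pck1 and Pklr showed no such relation (r = -0.07, permutation p = 0.827, adjusted p = 0.93; rho = 0.035, permutation p = 0.921).

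**Figure D4:**
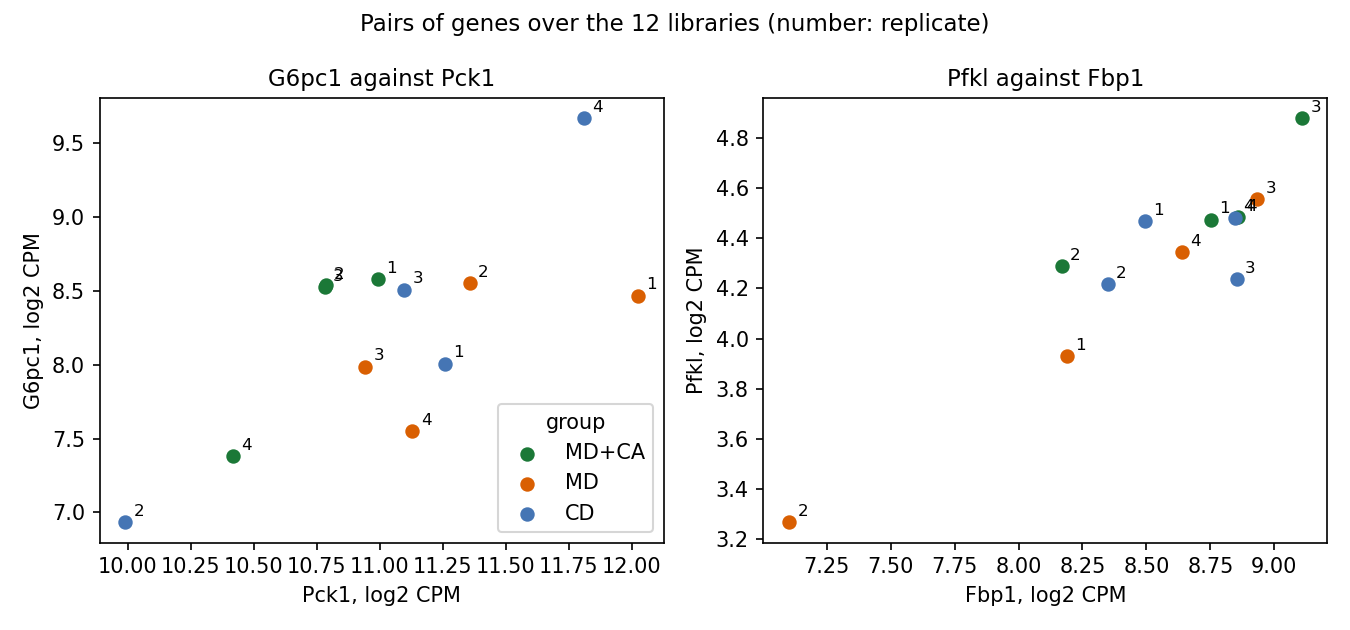
Log2 CPM of G6pc1 against Pck1 and of Pfkl against Fbp1, with 1 point for each of the 12 libraries, coloured by group and numbered by replicate. The points of Fbp1 and Pfkl lie along a line (r = 0.93) that ends at MD replicate 2, and those of Pck1 and G6pc1 scatter more widely (r = 0.715).

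The genes whose pattern over the 12 libraries was most like that of a member were sought among 10521 protein-coding genes by Pearson r of log2 CPM, as a description. For Pklr they were Azin1 (0.945), Ppm1a (0.942) and Me1 (0.940); Me1 encodes the cytosolic malic enzyme, which supplies NADPH for fatty acid synthesis. Me1 averaged 99.8 ± 62.8 CPM in MD+CA, 152 ± 68.3 CPM in MD and 301 ± 116 CPM in CD (SD, n = 4 each). For G6pc1 they were Sgk1 (0.882), Slc25a25 (0.840) and Igfbp1 (0.790), which encodes an insulin-repressed binding protein of insulin-like growth factors. For Pck1 they were Fam53a (0.896), Slc25a47 (0.876) and Rps27 (0.865), and for Pfkfb3 Slc20a1 (0.839), Acot12 (0.831) and Slc35e2 (0.808). All of these points share the libraries and their depth. Each r is among the highest of 10521 over only 12 libraries, so it is high in part by selection.

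The other enzymes of the pathway showed few calls. None of 11 tested isozymes and related enzymes, 4 genes of glucose entry, 8 shared reversible enzymes or 12 genes that feed gluconeogenesis passed edgeR's test in any of the 3 comparisons. At an unadjusted p of 0.05, between 2 and 4 isozymes, 0 and 1 entry genes, 1 reversible enzyme and 0 and 4 feeding genes passed in a comparison. The shares over all genes were 20% for MD against CD, 23.2% for MD+CA against MD and 10.5% for MD+CA against CD. Hk2, a hexokinase of muscle and fat, came nearest, at 3.64 ± 2.04 CPM in MD+CA, 3.05 ± 0.73 CPM in MD and 1.02 ± 0.27 CPM in CD (SD, n = 4 each), with a log2 fold change of 1.84 for MD+CA over CD (SE 0.40, edgeR adjusted p = 0.0519). Slc2a2, the main hepatocyte glucose transporter, averaged 190 ± 86.5 CPM in MD+CA, 251 ± 32.5 CPM in MD and 362 ± 33.2 CPM in CD. Its log2 fold change of MD+CA over CD was -0.93 (SE 0.27, edgeR adjusted p = 0.152).

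Downstream of Pklr, 1 of 11 tested genes of pyruvate handling fell in MD+CA against MD and 1 in MD+CA against CD. The shares of all genes that fell were 1.68% and 0.308%. Libraries of the compared groups did not overlap for 10.2% and 6.42% of all genes. The 2 genes were named for passing these tests, so the separation of their libraries is no further support. Pdp2, a phosphatase that activates pyruvate dehydrogenase, fell to 28.4 ± 4.26 CPM in MD+CA, against 48.2 ± 6.71 CPM in MD (log2 fold change -0.76, SE 0.18, edgeR adjusted p = 0.0362; lower in 4 of 4 libraries); CD averaged 34.6 ± 4.35 CPM. Pdk1, a kinase that inactivates the same complex, fell to 57.4 ± 18.6 CPM in MD+CA, against 142 ± 30.0 CPM in CD (log2 fold change -1.31, SE 0.24, edgeR adjusted p = 0.0313; lower in 4 of 4 libraries); MD averaged 93.6 ± 13.2 CPM. Both calls stood near the threshold: leaving out each of the 12 libraries in turn, Pdp2 lost its call 9 times (all but CD replicate 2, MD replicate 3 and MD+CA replicate 1), with values from -0.84 to -0.66 over all alternatives. Pdk1 lost its call 6 times (CD replicates 1, 2 and 4 and MD+CA replicates 1, 2 and 3), with values from -1.55 to -1.17. Both calls were also lost with an offset for average transcript length and when only the compared groups were fitted. Without the 3 libraries with the shortest fragments both were lost too, and with fragment length as a covariate that of Pdp2.

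Among regulators, 1 of 16 fasting genes and 3 of 13 fed or carbohydrate-responsive genes fell in MD+CA against MD, beside 1.68% of all genes. None passed in the other comparisons. At an unadjusted p of 0.05, 5 of the fasting and 3 of the fed genes passed for MD against CD, beside 20% of all genes. For MD+CA against MD 6 and 5 passed, beside 23.2%, and for MD+CA against CD 3 and 6, beside 10.5%. Cebpb, a transcription factor that activates Pck1 in fasting, fell to 62.6 ± 9.56 CPM in MD+CA, against 285 ± 130 CPM in MD (log2 fold change -2.19, SE 0.43, edgeR adjusted p = 0.0195), with CD at 114 ± 77.7 CPM. Txnip, a glucose-induced target of the carbohydrate response factor, fell to 30.8 ± 18.8 CPM in MD+CA, against 128 ± 30.6 CPM in MD (log2 fold change -2.05, SE 0.46, edgeR adjusted p = 0.0316), with CD at 106.2 ± 70.8 CPM. Rgs16, a G protein regulator also induced by glucose in hepatocytes, fell to 30.4 ± 43.0 CPM in MD+CA, against 370 ± 142 CPM in MD (log2 fold change -3.60, SE 0.82, edgeR adjusted p = 0.0325), with CD at 345 ± 181 CPM. Klf10, a glucose-induced transcriptional repressor, fell to 11.4 ± 6.14 CPM in MD+CA, against 38.0 ± 7.71 CPM in MD (log2 fold change -1.72, SE 0.44, edgeR adjusted p = 0.04997), with CD at 31.4 ± 19.3 CPM. No library of MD+CA reached the MD range for any of these 4 genes, beside 10.2% of all genes without overlap in this comparison. The 4 were named for passing the same test, so this separation is no further support. Leaving out 1 of the 12 libraries ended the call of Cebpb 3 times (MD replicate 1, MD+CA replicates 2 and 3), of Txnip and Rgs16 4 times each (MD replicates 1 and 2, MD+CA replicates 2 and 3) and of Klf10 8 times (all but CD replicates 2 and 4, MD replicate 3 and MD+CA replicate 4). The call of all 4 was also lost without the 3 libraries with the shortest fragments, where the edgeR adjusted p was 0.1715 to 0.251. Fewer libraries were then left in both groups. With fragment length as a covariate all 4 calls were lost as well. That of Rgs16 was lost when only the compared groups were fitted, and that of Klf10 with limma voom and without mitochondrially encoded genes.

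Foxo1, a mediator of insulin repression of G6pc1 and Pck1, averaged 29.4 ± 6.09 CPM in MD+CA, 49.6 ± 8.91 CPM in MD and 32.4 ± 3.02 CPM in CD, with a log2 fold change of -0.76 for MD+CA over MD (SE 0.20, edgeR adjusted p = 0.0511). Mlxipl, which encodes the carbohydrate response element binding protein, averaged 283 ± 37.5 CPM in MD+CA, 557.5 ± 292 CPM in MD and 497 ± 81.8 CPM in CD (log2 fold change for MD+CA over MD -0.98, SE 0.31, edgeR adjusted p = 0.0855). Ppargc1a, a coactivator of fasting transcription, averaged 17.9 ± 2.31 CPM in MD+CA, 30.4 ± 11.5 CPM in MD and 23.0 ± 2.58 CPM in CD (log2 fold change for MD+CA over MD -0.76, SE 0.24, edgeR adjusted p = 0.0812). The median log2 fold change of the fasting list for MD+CA over MD was -0.54 and that of the fed list -0.26, beside -0.0033 for all genes.

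**Figure D5:**
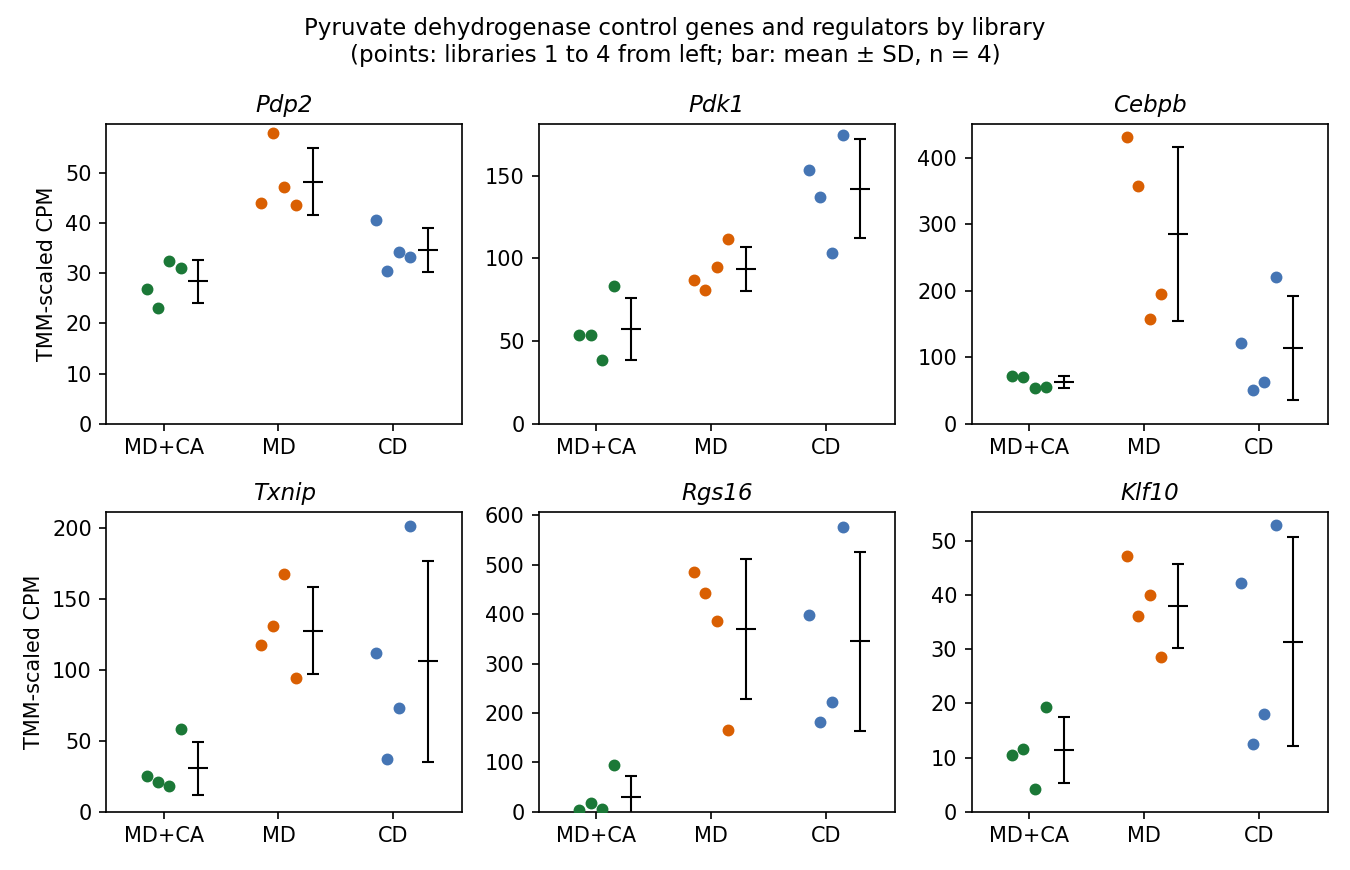
TMM-scaled CPM of Pdp2, Pdk1, Cebpb, Txnip, Rgs16 and Klf10 by library in MD+CA, MD and CD, with the mean ± SD of 4 libraries beside the points and axes from 0. For Pdp2, Cebpb, Txnip, Rgs16 and Klf10 the 4 MD+CA points lie below the 4 MD points, and for Pdk1 below the 4 CD points. The genes were picked for passing the test of that comparison. The lower bar of Rgs16 in MD+CA (30.4 ± 43.0 CPM) is clipped at 0.

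Genes of the circadian clock and immediate early genes also differed between groups. Of 15 clock genes tested, 1 rose and 8 fell in MD+CA against MD, beside 1.09% and 1.68% of all genes. In MD+CA against CD 1 rose and 4 fell, beside 0.22% and 0.308%. Bmal1, an activator at the core of the clock, rose to 12.7 ± 3.85 CPM in MD+CA, against 1.28 ± 0.51 CPM in MD (log2 fold change 3.31, SE 0.39, edgeR adjusted p = 0.00132), and Per3, a repressor, fell to 5.51 ± 4.44 CPM in MD+CA, against 66.0 ± 16.7 CPM in MD (log2 fold change -3.56, SE 0.43, edgeR adjusted p = 0.00132). Since liver glucose genes are known to follow feeding and time of day, and no collection time is given, time of day and the compound cannot be told apart for the members or their regulators. The 7 tested immediate early genes summed to 47.7 to 97.9 CPM in MD+CA, 151 to 1501 CPM in MD and 38.7 to 207 CPM in CD. Within MD the sums were 1061, 1501, 499 and 151 CPM in replicates 1 to 4. MD replicate 4 thus lay within the CD range. Of the 7, 6 fell in MD+CA against MD, beside 1.68% of all genes. In MD against CD 1 (Jun) rose, beside 0.0441% of all genes, a call lost without any 1 of 9 of the 12 libraries. Of the 6 calls in MD+CA against MD, only those of Ier2, Jun and Fos were recomputed under other settings. In MD+CA against MD, the calls of Ier2, Jun and Fos were lost with limma voom (adjusted p = 0.0709, 0.0731 and 0.252) and without the 3 libraries with the shortest fragments (edgeR adjusted p = 0.102, 0.169 and 0.155), and those of Jun and Fos also with fragment length as a covariate (edgeR adjusted p = 0.0697 and 0.0617). Their part in the Cebpb, Txnip, Rgs16 and Klf10 values was not tested.

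Liver zonation genes, which mark the periportal zone where gluconeogenesis is known to be highest and the pericentral zone where glycolysis is, did not pass the edgeR test in any comparison (0 of 8 in each zone). At an unadjusted p of 0.05, 3, 3 and 0 of the periportal genes and 1, 1 and 0 of the pericentral genes passed for MD against CD, MD+CA against MD and MD+CA against CD. The shares over all genes were 20%, 23.2% and 10.5%. The median log2 fold change of the periportal genes was -0.49, 0.27 and -0.15 in those comparisons, and that of the pericentral genes 0.31, -0.29 and 0.09. That of all genes tested was 0.04, -0.0033 and 0.02.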

How the data were processed

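Per the labels' protocols, poly(A) RNA of liver was sequenced from 12 libraries in 3 groups of 4. Per the submitters' processing notes, the tools were fastp, DESeq2 and Salmon 1.10.3 on build GRCm39. The strand setting, the tools' options and the release of the annotation were not given in the sources used here. The authors deposited 1 table per library with 147556 transcripts: expected counts (estimated reads per transcript, not normalized), TPM (scaled by the authors for length and depth) and transcript lengths, per the file headers.

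Expected counts were summed by gene symbol and rounded to whole numbers. Genes were filtered with filterByExpr (minimum count 10) and scaled with TMM factors (0.87 to 1.07). The 3 comparisons were contrasts in 1 edgeR 4.0.16 quasi-likelihood model of all 12 libraries with a mean per group (residual degrees of freedom 9, biological coefficient of variation 0.307 over all genes). P-values were adjusted by Benjamini-Hochberg over 13620 genes, with a threshold of 0.05. CPM values are TMM-scaled, and log2 CPM has a prior count of 2. A standard error is the log2 fold change over the square root of its F statistic, and 95% intervals use the residual degrees of freedom and are not adjusted. Relations between genes over libraries used 100000 permutations, two-sided. Intervals and p-values at this depth cover the spread between libraries. Within groups, counts of all 18 pairs of libraries differed by far more than sampling noise (chi-square per degree of freedom 19.1 to 194). They differed by more than 1 library sequenced again would, but this cannot show that they came from separate mice. Each library was counted as a replicate.

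All 9 members were named in every comparison; from each list, the genes that passed (at most 3 by smallest p) or, where none passed, some of the 2 with the smallest p; and the 3 genes most like Pck1, G6pc1, Pklr and Pfkfb3. Mlxipl and Ppargc1a were named for their roles, with values in view, and 1 other gene of the lists is not reported here. The members and lists were chosen with earlier results of these data known. The model steps were checked on simulated counts. Of genes given a 2-fold change, 28% were recovered for MD vs CD, 28% for MD+CA vs MD and 22% for MD+CA vs CD. Of those given a 4-fold change, 90%, 86% and 88% were recovered. Most changes of 2-fold were thus missed. Promoter windows come from RefSeq on GRCm38.p6, another build than the libraries'; all 9 members matched (17 windows), G6pc1 under its older symbol G6pc. Alternatives were other scalings, tools, filters, designs and omitted libraries. The software was R 4.3.3 with DESeq2 1.42.0 and limma 3.58.1, and Python 3.11.15 with matplotlib 3.10.9, pandas 2.3.3 and numpy 2.4.6.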

Additional observations from a re-analysis of the deposited data

Results flagged for a closer look

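G6pc1 in MD+CA replicate 4, at 166 CPM, stood apart from the other 3 libraries of its group, which lay between 368 and 382 CPM: the gap below them was 0.935 of the whole range of the group. This library was also the highest of its group for Pklr and the lowest for Pck1. Of 27 groups examined (9 genes in 3 groups of 4), this was the only one in which a library stood so far from the rest, and chance gives about 1 in 20.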

How the results depend on the processing

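Each difference of the 9 genes was recomputed under 22 alternatives, 198 values for each comparison. Direction and side of the threshold were kept in 188 values for MD vs CD, 192 for MD+CA vs MD and 184 for MD+CA vs CD. The count of members called, 0 with edgeR, became 1 for MD vs CD with DESeq2, with limma voom and with no low-count filter (Pklr each time); 1 for MD+CA vs MD with DESeq2 (Slc37a4); and 1 for MD+CA vs CD with DESeq2, limma voom, no low-count filter, the replicate block and the fragment length as covariate (Pklr). Leaving out each library in turn gave 0 to 0 members in the first comparison and in the second, and 0 to 1 in the third (1 without MD replicate 2 or MD+CA replicate 4). The number called among all genes also changed with the setting, and its range is given below. Over all alternatives the adjusted p of Pklr ran from 0.0163 to 0.454 for MD vs CD and from 0.00139 to 0.189 for MD+CA vs CD, and that of Slc37a4 for MD+CA vs MD from 0.0426 to 0.246.

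Signs turned, with no value past the threshold, as follows. Without the 3 libraries of shortest fragments (chosen after seeing the data), MD over CD gave -0.14 for Pck1, 0.14 for Fbp1, 0.045 for Pcx and 0.096 for Pfkl, MD+CA over MD gave -0.032 for Fbp1, and MD+CA over CD gave 0.062 for Pcx. With fragment length as covariate, Pck1 was -0.041 in MD over CD and Pcx -0.030 in MD+CA over MD. With limma voom, Pcx was -0.045 in MD+CA over MD and G6pc1 0.000857 in MD+CA over CD. Leaving out each library in turn, MD over CD ran from -0.71 to 0.24 for G6pc1 and from -0.023 to 0.54 for Pck1; MD+CA over MD ran from -0.024 to 0.36 for G6pc1 and from -0.031 to 0.20 for Pcx; MD+CA over CD ran from -0.043 to 0.26 for Fbp1, from -0.57 to 0.38 for G6pc1 and from -0.17 to 0.065 for Pcx. The cause was not tested.

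Counts over all genes moved more: from 12 to between 0 and 632 for MD vs CD, from 378 to between 35 and 1216 for MD+CA vs MD, and from 72 to between 15 and 397 for MD+CA vs CD, with the highest from DESeq2 in the first 2 and from no filter in the last. The share of higher calls was 39.4% for MD+CA vs MD and 41.7% for MD+CA vs CD, against 48.8 and 54.7% with DESeq2. Same-numbered libraries of different groups had correlations of -0.077 to 0.349, with 9 of 12 over 0.1, against 9 of 36 among libraries of different numbers. The labels give no meaning to the numbers and 3 of the 12 pairs were not over 0.1, so the numbers were not taken as pairs, although the values are a hint of pairing from the data; 16 of 24 comparisons of a library with another group were best with its own number. With the replicate block, 12, 674 and 154 genes passed, and Pklr had an adjusted p of 0.0436 for MD+CA vs CD.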
